A study of Mus musculus with 2 samples.

Results

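The miRNA genes named Mir297, Mir466, Mir467 and Mir669 form a group of rodent repeats, most of which lie side by side in an intron of the polycomb-group gene Sfmbt2. Members were chosen by name alone: every gene of GENCODE release M21 whose name begins with one of these 4 stems, followed by a letter, a hyphen or the end of the name. The rule found 81 of the 2202 annotated miRNA genes, of which 71 lay inside Sfmbt2 on chromosome 2 and 10 lay on other chromosomes. Small RNA had been sequenced from myotubes of C2C12, a myoblast line derived from the injured thigh muscle of C3H mice, after 72 h of differentiation. The study comprised 1 group, with no treatment and no undifferentiated control, and its 2 libraries are biological replicates 1 and 2 in the labels. Differences could therefore be described between members and between libraries, not between conditions.

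Sfmbt2 encodes a protein with MBT domains that takes part in repression of transcription, and the gene is imprinted and expressed from the paternal allele in the early embryo and the extraembryonic tissues. Its intronic miRNA cluster expanded in rodents, and mice without the cluster have placental defects. In muscle biology the group is known mainly for miR-669a, reported to hold back skeletal muscle differentiation in cardiac progenitors by acting on MyoD. The host mRNA was not measured by this small RNA assay.

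The 9 members that matched the RefSeq miRNA table all lay outside Sfmbt2, and 8 of them had a mature sequence there. These sequences are shown for the alternation of purines and pyrimidines that runs through the group. Each is written 5′ to 3′ as RNA, credited to RefSeq on GRCm38.p6, with the seed, bases 2 to 8, in capitals.
miR-466q (chr3:28419988-28420007, plus strand): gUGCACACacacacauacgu
miR-466k (chr3:85467396-85467418, plus strand): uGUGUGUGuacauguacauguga
miR-466j (chr10:60960802-60960824, plus strand): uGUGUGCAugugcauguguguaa
miR-466i-3p (chr13:17747552-17747573, plus strand): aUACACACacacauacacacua
miR-467f (chr11:69635419-69635439, minus strand): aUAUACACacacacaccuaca
miR-467g (chr5:34732872-34732892, minus strand): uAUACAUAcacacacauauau
miR-467h (chr9:115381898-115381919, plus strand): aUAAGUGUgugcauguauaugu
miR-669n (chr3:115979905-115979924, plus strand): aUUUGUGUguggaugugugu

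No seed was common to any pair of these 8 miRNAs. Among the 1674 distinct mature sequences of the RefSeq table, only miR-467h had a seed held by another sequence, that of miR-668-5p. No member inside Sfmbt2 was matched to this table, so it cannot show whether mature miRNAs of that cluster share these seeds. The share of steps that pass from a purine to a pyrimidine or back was 100% in miR-466q and miR-467g and lowest, at 78.9%, in miR-669n. The hairpin of Mir297-1, a member on chromosome 7, shows how far such a run can extend. In it the longest unbroken alternation, in capitals, covers 50 of 76 bases.
Mir297-1 hairpin (chr7:10958437-10958512, minus strand): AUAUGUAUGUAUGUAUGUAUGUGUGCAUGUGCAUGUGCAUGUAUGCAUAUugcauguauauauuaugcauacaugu

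Over whole hairpins as annotated in GENCODE, alternating steps made up a median of 86.3% in the 81 members, from 64.3% to 97.3%, against 44.8% over all 2202 genes. None of the 8 mature sequences occurred in a hairpin inside Sfmbt2. Their 7-base seeds did. The seed of miR-467g was found in 62 of the 71 hairpins inside Sfmbt2 (87.3%) and in 3.77% of the 2121 hairpins that were no members. That of miR-466i-3p was found in 46 (64.8%, against 6.18%), that of miR-466k in 43 (60.6%, against 7.45%) and that of miR-466j in 40 (56.3%, against 2.88%). The miR-467h seed was found in 1. The search read each hairpin on its own strand, and neighbouring hairpins are copies of each other, so these counts describe the repeat and are no count of functional sites.

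All 71 members inside Sfmbt2 lay in 1 intron, on the same strand as the gene. On mm10 this intron runs from 10461473 to 10523944 of chromosome 2, or 62.5 kb, and is intron 10 of the transcript Sfmbt2-201 and intron 11 of Sfmbt2-205. The members filled 51.6 kb of it, from 10466663 to 10518279, with 5.19 kb of intron before the first and 5.67 kb after the last. They comprised 29 Mir669, 23 Mir466, 14 Mir467 and 5 Mir297 genes. Neighbouring members were separated by a median of 209 bases (132 to 2575 bases over 70 gaps). The arrangement repeated itself: the 10 Mir467a copies started a median of 2462 bases apart, the 12 Mir669a copies 2457 bases and the 8 Mir466b copies 2470 bases.

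The 10 members elsewhere were single genes on 7 chromosomes. Mir466q lay in an intron of Tnik on the same strand. Mir466i (Cdk13), Mir467f (Fxr2), Mir467g (Grk4), Mir669n (Slc30a7) and Mir466k (Gm37240) lay in introns of genes on the opposite strand. Mir297-1, Mir466f-4, Mir466j and Mir467h overlapped no annotated host gene.

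Reads counted on a gene's own strand numbered 7581366 in replicate 1 (49.4% of 15349205 reads) and 9865298 in replicate 2 (53.5% of 18450359), and levels are given as CPM, the count per 1000000 of these reads. A count of 3 reads, the limit that a count of 0 allows, was 0.396 CPM in replicate 1 and 0.304 CPM in replicate 2. Floors and intervals given here are at the 95% level and cover counting error only. The skeletal muscle miRNA genes Mir206, at 340841 and 416794 CPM, and Mir133b, at 13609.7 and 10567.7 CPM, were abundant in both libraries and served to check the label of myotubes. Multimapping reads went to a line of their own, outside any gene, and were 22.01% of the reads of replicate 1 and 17.86% of those of replicate 2.

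The members together held 2732 reads in replicate 1 (360 CPM) and 795 reads in replicate 2 (80.6 CPM). This was 0.0360% of own-strand gene reads in replicate 1 (exact Clopper-Pearson interval 0.0347% to 0.0374%) and 0.00806% in replicate 2 (0.00751% to 0.00864%), or 0.0220% ± 0.0198 (SD, n = 2). The group was therefore a trace component in both libraries, and its share in either alone differed from the mean by more than 1.5 times. In bulk RNA, fewer cells that carry a miRNA and less of it in each cell cannot be told apart.

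Every one of these reads lay inside Sfmbt2. The 10 members elsewhere had no read in either library. Neither had 57 of the 71 members inside, nor 1494 of all 2202 genes. The sum inside was 911-fold the floor of 3 reads for the group elsewhere in replicate 1 and 265-fold in replicate 2. These ratios set 71 genes against 10, and most reads inside came from Mir467d, Mir467c and Mir467e. A pair of libraries cannot give an exact paired permutation p below 0.5, and no test was made. In the measure of own sequence described further on, the median of the members elsewhere was above that of the members inside. That measure compares whole hairpins with other annotated hairpins only. The mature sequence of miR-467h was held by 3 annotated hairpins, its own included. Whether reads of the members elsewhere were lost as multimapping was not tested. No member had a read on the opposite strand in either library.

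Reads were found at 14 of the 81 members (17.3%), against 708 of all 2202 genes (32.2%), and 67 members had no read in either library. Reads in both libraries were found at 7 of the 81 members, against 555 of all 2202 genes. These same 7 were the members with 10 or more reads in total, against 415 of all 2202 genes. A level of 2 CPM or more in both libraries, the rule for detection, was reached by 6 of the 81 members (7.41%), against a background of 12.4% (274 of 2202 genes). The detected members were Mir467d, Mir467c, Mir467e, Mir669o, Mir669l and Mir669c. At 5 CPM in both libraries the count was 4, since Mir669o in replicate 2 and Mir669c in replicate 1 fell short of it.

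**Figure D1:**
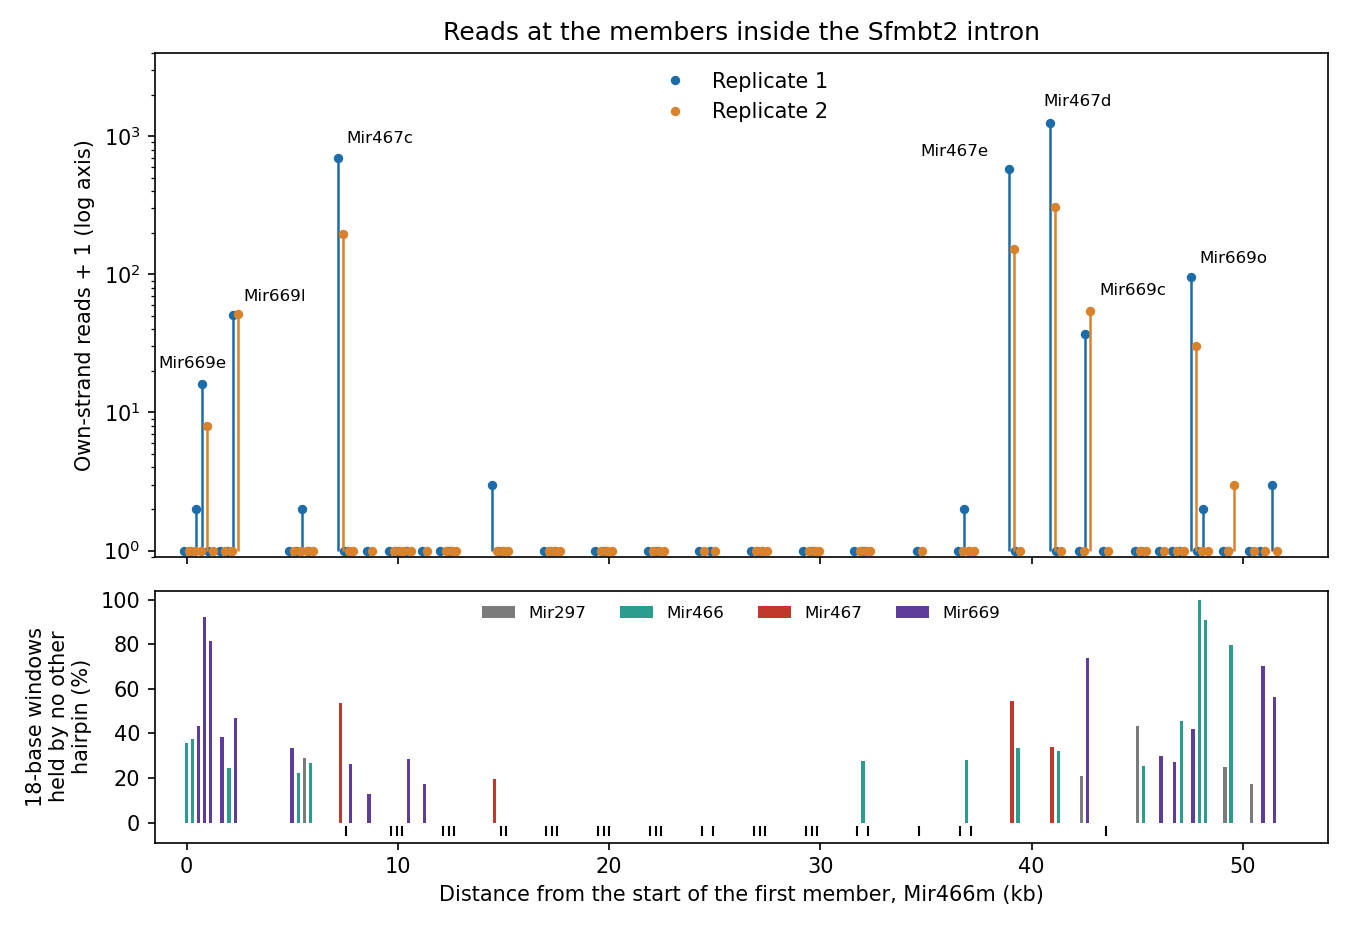
Own-strand reads plus 1 (upper panel, log axis; blue, replicate 1; orange, replicate 2) and the share of 18-base windows of the hairpin held by no other annotated hairpin (lower panel, %; tick marks stand for members at 0%) for the 71 members inside Sfmbt2, by distance in kb from the first member, Mir466m. The 7 members with 10 or more reads started within the first 7.27 kb or from 39.1 kb onward, and the 38 members between Mir467c and Mir467e held 3 reads in replicate 1 and none in replicate 2.

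The Mir467 stem gave most of the reads. Products of Mir467 genes are reported to act on the mRNA of thrombospondin-1, an inhibitor of blood vessel growth. Mir467d (ENSMUSG00000077021.2, chromosome 2, 10507630 to 10507714, plus strand) had 1253 reads in replicate 1 and 307 in replicate 2, or 165 and 31.1 CPM (98.2 ± 94.9 CPM; SD, n = 2). Mir467c (ENSMUSG00000077049.2, 10473931 to 10474027) had 694 and 194 reads, or 91.5 and 19.7 CPM (55.6 ± 50.8). Mir467e (ENSMUSG00000076948.2, 10505721 to 10505807) had 582 and 152 reads, or 76.8 and 15.4 CPM (46.1 ± 43.4). All 3 were high in replicate 1 and low in replicate 2, and the highest replicate 2 value, 31.1 CPM, was below the lowest replicate 1 value, 76.8 CPM. By mean CPM they ranked 134th, 155th and 160th of the 2202 miRNA genes.

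Between libraries the ranges of these 3 genes overlapped, so their mean levels were not separated by the replicate spread. Within each library their order was the same. Mir467d exceeded Mir467c 1.81-fold in replicate 1 (interval 1.64 to 1.98) and 1.58-fold in replicate 2 (1.32 to 1.90). Mir467c exceeded Mir467e 1.19-fold (1.07 to 1.33) and 1.28-fold (1.03 to 1.59). The ratio of Mir467d to Mir467e was 2.15 and 2.02, so the proportions among the 3 genes were much closer between the libraries than their levels were.

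The other Mir467 genes inside Sfmbt2 were near or at 0. Mir467b had 2 reads in replicate 1 and none in replicate 2, and the 10 Mir467a copies had none. Together Mir467d, Mir467c and Mir467e took 2529 of the 2732 member reads in replicate 1 and 653 of 795 in replicate 2. Mir467d alone took 45.9% of member reads in replicate 1 (44.0% to 47.8%) and 38.6% in replicate 2 (35.2% to 42.1%).

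The Mir669 stem came next, with 198 reads in replicate 1 and 140 in replicate 2 over 29 genes inside Sfmbt2. Mir669o (ENSMUSG00000077086.1, 10514300 to 10514395) had 94 and 29 reads, or 12.4 and 2.94 CPM (7.67 ± 6.69; SD, n = 2). Mir669l (ENSMUSG00000076959.1, 10468971 to 10469068) had 50 and 51 reads, or 6.60 and 5.17 CPM (5.88 ± 1.01). Mir669c (ENSMUSG00000076118.1, 10509296 to 10509404) had 36 and 53 reads, or 4.75 and 5.37 CPM (5.06 ± 0.441). The order of these 3 genes turned over between the libraries: Mir669o led in replicate 1 and was the lowest of them in replicate 2. Mir669l and Mir669c were not separated in either library, with ratios of 1.39 (0.887 to 2.19) and 0.962 (0.642 to 1.44).

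Mir669e (ENSMUSG00000080653.1, 10467495 to 10467613) had 15 and 7 reads, or 1.98 and 0.710 CPM, just short of detection in replicate 1. Mir669h had 2 reads and Mir669f 1 read, all in replicate 1. The 12 Mir669a copies, whose product is the member best known from muscle, had no read in either library. That is not a measure of mature miR-669a, because 11 of the 12 annotated hairpins had no sequence of their own, as given further on.

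Mir466 and Mir297 were barely present. The 23 Mir466 genes inside Sfmbt2 held 2 reads in each library: Mir466l, tied in the literature to the stability of the interleukin-10 mRNA, had 2 in replicate 2, and Mir466b-3 and Mir466h had 1 each in replicate 1. Of the 5 Mir297 genes there, Mir297a-2 had 1 read in replicate 1. All of these counts were under 3 reads, the floor given for a count of 0.

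Position along the intron was described by stretches chosen after the values were seen. The 12 members before Mir467c held 67 reads in replicate 1 and 58 in replicate 2. The 20 members from Mir467e to the last, Mir669h, held 1968 and 543 reads. The 38 members between Mir467c and Mir467e, which span 29.7 of the 51.6 kb, held 3 reads, 2 at Mir467b and 1 at Mir466b-3, all in replicate 1. Other miRNA genes are annotated inside Sfmbt2, under other names, and of these 48 genes only Gm22925 had a read, 1 in replicate 2. Of the 48, 22 (45.8%) had no own sequence in the measure described next, so a 0 at these is no measure of expression.

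The stretch with the fewest reads was also the one in which hairpins were most alike. Because a read that maps to several places was counted outside the genes, an exact read is assigned to a gene only where the sequence differs from that of other copies. Each annotated hairpin was cut into overlapping windows of 18 bases, and a window was called the gene's own where no other annotated miRNA hairpin held it on either strand. Of the 71 members inside Sfmbt2, 32 (45.1%) had no window of their own, against 342 of all 2202 genes (15.5%) and none of the 10 members elsewhere. Of these 32, 31 lay between Mir467c and Mir467e, and the other was Mir669a-2.

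By name, all 10 Mir467a copies, 11 of 12 Mir669a copies, 6 of 8 Mir466b copies, both Mir669p genes, 2 Mir466c genes and Mir466e had no window of their own. Many were exact duplicates: the 10 Mir467a genes had only 3 distinct hairpins, the 12 Mir669a genes 4 and the 8 Mir466b genes 6. In all, 26 of the 81 members had an identical copy, all of them inside Sfmbt2, against 244 of all 2202 genes. The median share of own windows was 19.6% inside Sfmbt2 and 65.0% elsewhere (30.5% to 97.3%), against 94.3% over all genes.

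None of the 32 members without an own window had a read. Any exact 18-base read from such a hairpin matches another annotated hairpin as well, so these zeros are no measure of expression. The share of own windows had a median of 53.8% in the 7 members with 10 or more reads, 43.3% in the 7 with 1 to 9 reads and 17.3% in the 67 with none. Among the 49 members with at least 1 own window, 14 had reads and 35 had none. Mir466g, the one member whose windows were all its own, had no read in either library. Reads were found at 1 of 8 members with own windows up to 25%, 6 of 24 above 25% and up to 50%, 4 of 8 above 50% and up to 75%, and 3 of 9 above 75%. These groups held 2, 1787, 1713 and 25 reads over both libraries, and 1560 of the 1787 were from Mir467d. Other places in the genome were not searched, so a window called own here may still match elsewhere.

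**Figure D2:**
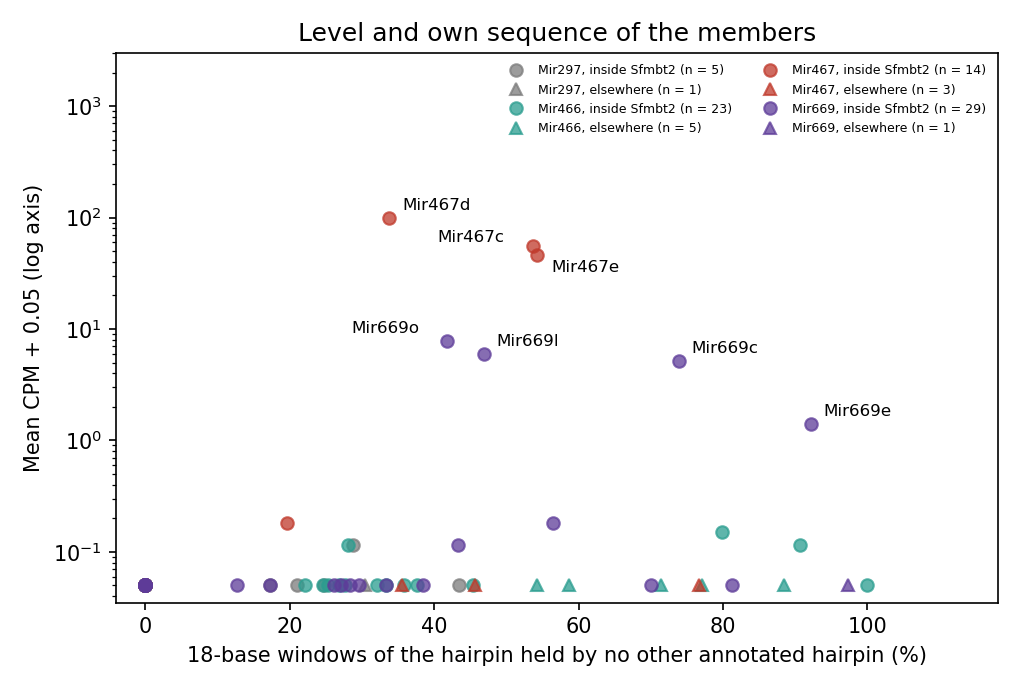
Mean CPM plus 0.05 (log axis) of the 81 members by the share of 18-base windows of the hairpin held by no other annotated hairpin (%), with circles inside Sfmbt2, triangles elsewhere and colours for the 4 stems. Mir467d had the highest mean, 98.2 CPM, at 33.8% own windows, and all 10 members elsewhere lay at 0 CPM with 30.5% to 97.3%.

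The 7 members with 10 or more reads had between 33.8% and 92.2% own windows. Mir467d had 23 own windows of 68, and its longest exact run in common with another member was 60 bases, with Mir467a-9. Mir467c had 43 of 80 and Mir467e 38 of 70, with 48 bases in common between them. In global alignment the Mir467d and Mir467e hairpins were 92.0% identical, Mir467c and Mir467e 83.7% and Mir467c and Mir467d 83.5%. The Mir467h hairpin on chromosome 9 was only 42.6% identical to Mir467d despite the name.

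Mir669o was closest to a copy that had no read: it was 92.8% identical to Mir669a-1 and had 33 own windows of 79. Mir669l had 38 of 81, Mir669c 68 of 92 and Mir669e 94 of 102. Mir669c had a run of 36 bases in common with Mir669a-3, close to the 38 bases of Mir669o with Mir669a-9, and shared windows with 86 annotated hairpins, the most of the 7. The counts of Mir467d, Mir467c, Mir467e, Mir669o, Mir669l and Mir669c, each with long runs common to other members, are uncertain as levels, since a read that matched several of them was assigned to none. Mir467b, at 97.3% identity to Mir467a-1, had 11 own windows of 56, the fewest of the 14 members with reads.

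The libraries were next compared gene by gene. Over all genes with 10 or more reads, an exact two-sided binomial test with TMM effective library sizes and Benjamini-Hochberg adjustment called 231 of 415 genes (55.7%). Replicate 1 was the higher one at 126 of these genes (30.4% of those tested) and replicate 2 at 105 (25.3%). Of the 7 members tested, 4 were called (57.1%), about the share over all genes, so the count itself does not set the members apart. All 4 were higher in replicate 1. The median log2 ratio of replicate 1 to replicate 2 was 2.05 over the 7 members and 0.02 over the 413 tested genes with reads in both libraries. The test compares these libraries, not conditions, and neighbouring copies in 1 intron are not independent of each other.

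Mir467d was 5.20-fold higher in replicate 1 (interval 4.59 to 5.91; adjusted p = 1.69e-189, exact binomial test). Mir467e was 4.88-fold higher (4.07 to 5.87; adjusted p = 1.37e-84, exact binomial test) and Mir467c 4.56-fold higher (3.88 to 5.37; adjusted p = 3.64e-95, exact binomial test). Mir669o was 4.13-fold higher (2.70 to 6.50; adjusted p = 1.13e-12, exact binomial test). The intervals of these 4 genes overlapped one another. Over all 274 detected genes, 11 were at least as far apart between the libraries as Mir467d and 17 at least as far apart as Mir669o, each count including the gene itself.

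The other 3 tested members did not pass. The ratio of replicate 1 to replicate 2 was 2.73 for Mir669e (1.05 to 7.92; adjusted p = 0.0524, exact binomial test), 1.25 for Mir669l (0.829 to 1.88; adjusted p = 0.372) and 0.865 for Mir669c (0.551 to 1.35; adjusted p = 0.632). The upper bounds for Mir669l and Mir669c lay below the lower bounds of all 4 members that passed. The members thus differed among themselves, beyond counting error, in how far apart the libraries were. The share of Mir669c among member reads was 1.32% (0.925% to 1.82%) in replicate 1 and 6.67% (5.03% to 8.63%) in replicate 2, and that of Mir669l was 1.83% (1.36% to 2.41%) and 6.42% (4.81% to 8.35%). The share of Mir467d also shifted, from 45.9% to 38.6%, with intervals that did not overlap. The shares of Mir467c (25.4% and 24.4%), Mir467e (21.3% and 19.1%) and Mir669o (3.44% and 3.65%) had overlapping intervals.

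**Figure D3:**
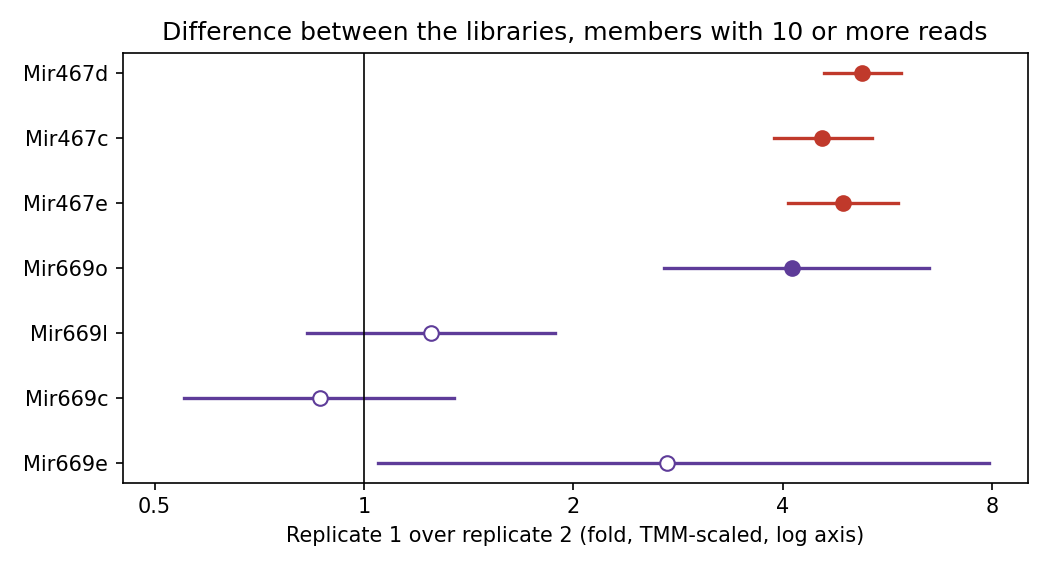
Ratio of replicate 1 to replicate 2 after TMM scaling (log axis) for the 7 members with 10 or more reads, with 95% exact intervals for counting error; filled points passed the adjusted threshold of 0.05 and open points did not. Mir467d, Mir467c, Mir467e and Mir669o lay between 4.13 and 5.20, and Mir669l (1.25) and Mir669c (0.865) lay near 1.

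Summed over all members the ratio was 4.38 (4.04 to 4.74), and it was decided by the 3 Mir467 genes. Their sum gave 4.93 (4.53 to 5.39). Without them the other members held 203 reads in replicate 1 and 142 in replicate 2, a ratio of 1.82 (1.46 to 2.27). The position of a member in the intron did not sort the ratios: Mir669c and Mir467d, which lie 42.6 kb and 41.0 kb from the first member, gave 0.865 and 5.20.

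**Figure D4:**
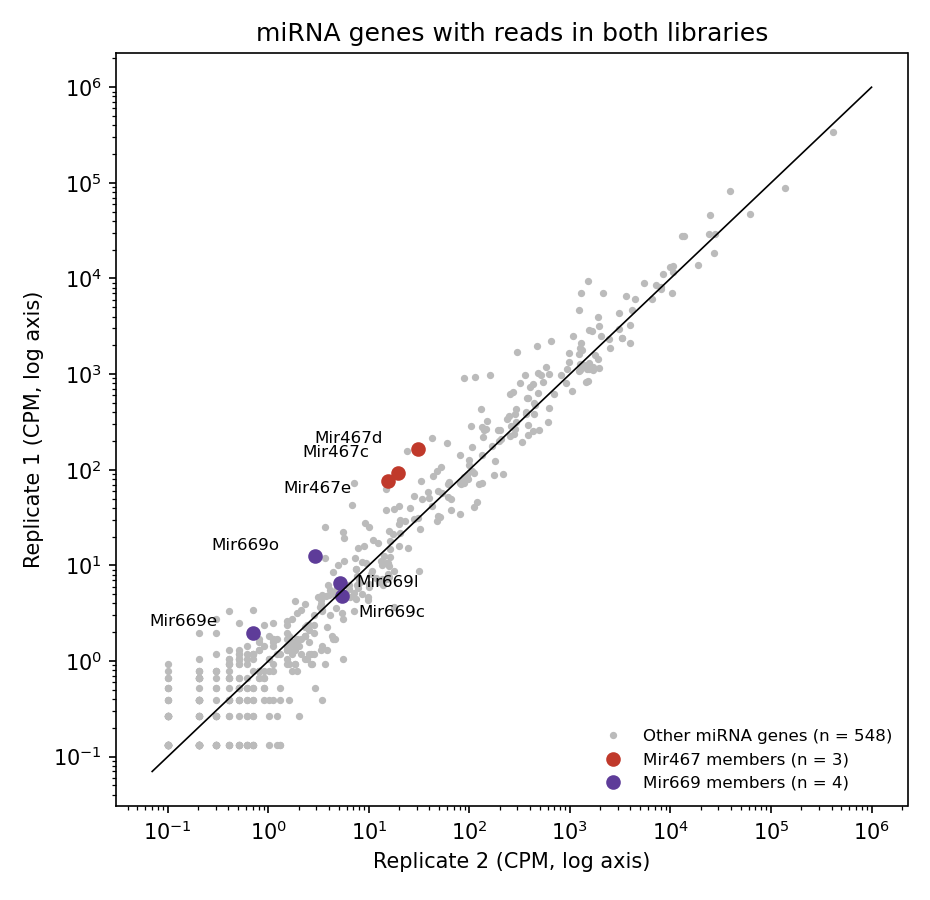
CPM in replicate 1 against replicate 2 (log axes) for the 555 genes with reads in both libraries, with the 7 members in colour, other miRNA genes in grey and a line at equal values. Mir467d, Mir467c, Mir467e and Mir669o stood above the line, whereas Mir669l and Mir669c lay close to it at about 5 CPM.

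Some genes listed as markers of other cell types differed between the libraries too, although the labels name only C2C12. Mir126a, the only gene listed for endothelium, had 1646 reads in replicate 1 and 423 in replicate 2. It was 4.96-fold higher in replicate 1 (4.45 to 5.53), about the ratio of the 3 Mir467 genes. Such a ratio was not particular to Mir126a. Genes on none of the marker lists had larger ones, among them Mir34c (5.38) and Mir31 (6.11). The epithelial, blood and myotube lists were mixed in direction. Of the 5 epithelial markers, Mir200c had 25 and 4 reads and was 7.96-fold higher in replicate 1, Mir141 had 8 and 15 reads (ratio 0.680, not called), Mir200b had 0 and 2 reads, and Mir200a and Mir429 were at 0. Of the 5 blood markers, with 794 and 1809 reads in all, Mir142 held 675 and 1752 and was 2.04-fold higher in replicate 2, where Mir150 (1 and 13 reads) was higher as well. The red-cell markers Mir451a (90 and 36 reads) and Mir144 (26 and 7 reads) were 3.19-fold and 4.73-fold higher in replicate 1, the direction of the Mir467 genes. The 7 neuronal markers had 640 and 866 reads, nearly all at Mir153 (ratio 0.943, not called), and 5 of them were at 0.

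The 8 myotube markers made up 35.5% of own-strand gene reads in replicate 1 and 42.8% in replicate 2, almost wholly through Mir206, which was 1.25-fold higher in replicate 2. Mir208b (1.94-fold) and Mir133a-1 (2.44-fold, on only 9 and 28 reads) were higher in replicate 2 as well. Mir133b (1.26-fold), Mir499 (1.46-fold) and Mir1a-2 (2.27-fold, on only 32 and 18 reads) were higher in replicate 1, and Mir1a-1 and Mir133a-2 were not called. Whether cells other than C2C12 were present was not tested. Nor was the part that cell types, or multimapping reads, had in the members' difference.

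Other rodent or embryonic clusters gave a scale for these low levels. The X-linked testis cluster, another group of miRNAs that evolves quickly in rodents, had reads at 13 of 18 matched genes and 292 and 238 reads in all, 1.56-fold higher in replicate 1 (1.31 to 1.86). The Mir290 cluster, which marks embryonic stem cells, had reads at 4 of 9 matched genes, 6 reads in replicate 1 and 4 in replicate 2, and no detected gene. The summed Sfmbt2 members were thus above both sums in each library (360 and 80.6 CPM, against 38.5 and 24.1 CPM for the X-linked cluster). Their sum was over 71 genes, against 18 and 9, and reads were found at 19.7% of them, against 72.2% and 44.4%. The members other than Mir467c, Mir467d and Mir467e, at 26.8 and 14.4 CPM, were below the X-linked cluster.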

How the data were processed

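Small RNA of C2C12 myotubes was analysed as 1 group of 2 libraries, following the labels. The authors deposited raw read counts per miRNA gene, made on mm10 with annotation M21, as a note deposited beside the tables states. The aligner, counter, trimming steps and filters were not given in the sources used here. Unmapped, multimapping and no-feature reads (22.7%, 22.01% and 5.88% of replicate 1, and 23.1%, 17.86% and 5.57% of replicate 2) entered neither totals nor tests. The labels mention no molecular identifiers, so a count is one of reads, not of molecules.

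CPM used own-strand gene reads as the total. All 2202 identifiers matched GENCODE M21, from which positions, introns and hairpins were taken (1-based). TMM factors (1.01 and 0.990) came from edgeR 4.0.16 in R 4.3.3. Each gene with 10 or more reads in total was tested with an exact two-sided binomial test, with Benjamini-Hochberg adjustment over all of them and a threshold of 0.05. The biological coefficient of variation over 274 detected genes was 0.426. On simulated data for this comparison (417 genes), 65% of 100 genes changed 1.5-fold, 73% of 100 genes changed 2-fold and 0.922% of 217 unchanged genes were called. The simulated counts were Poisson draws with counting error only. These rates therefore do not hold for libraries that vary beyond it, as these did. Shares have exact Clopper-Pearson intervals. Python 3.11.15, numpy 2.4.6 and scipy 1.17.1 were used.

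Named genes were every member with 10 or more reads, Sfmbt2 as host, and Mir206 and Mir133b as a check of the label. Other members, Gm22925 and the markers of cell types were named for their counts, lists or sequences. The name rule that chose the members, the lists and the tests were set with earlier results of these data known. Alternatives were DESeq2 1.42.0 size factors or totals in place of TMM, other read minimums, strand-ignored counts, all reads as denominator, other detection levels, and each library left out. Window lengths of 16, 20 and 22 bases were added after the data had been seen.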

Additional observations from a re-analysis of the deposited data

Results flagged for a closer look

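Some reads lay outside the gene counts used here, in numbers far over the 3 reads that a count of 0 allows. In replicate 1, 3378438 reads were multimapping and 903243 mapped to no miRNA gene. In replicate 2 these were 3295854 and 1027420 reads. How many of either came from the Mir297, Mir466, Mir467 and Mir669 repeats was not tested. With 1 group of 2 libraries, outlying libraries and differences between groups were not looked for.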

How the results depend on the processing

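All 31 values of the summary results and all 33 values of the 7 tested members under alternatives kept their direction and their side of the threshold, or stayed within the spread that counts as no move. The test called 4 members under every alternative and between 205 and 230 of all genes, but the number of genes tested differed. At 100 or more reads it called 205 of 240 genes and 4 of 5 members. At 1 or more reads it called 221 of 708 genes and 4 of 14 members. The number of detected members was 6 with each library left out, 4 at 5 CPM and 7 at 1 read in both libraries. A count could change within a set ratio and still count as no move, as the change from 6 to 4 did. The members' mean share was 0.0247% with strand ignored and 0.0111% of all reads. Their share was 0.00806% without replicate 1 and 0.0360% without replicate 2. For the shares and the log2 ratio the spread was the SD of the 2 libraries. It is so wide that mean shares of 0.0220% and 0.0111% counted as no move. Leaving 1 library out always stays within this SD, so those values are no sign of stability. The share elsewhere was 0 in both libraries, so another denominator or a library left out could not move it. The adjusted p of Mir669e (exact binomial test) ran from 0.0522 to 0.0873. The mean log2 ratio of reads elsewhere to inside was -11.53 with 0.5 reads added and -10.53 with 1 read added, and it is set by that number since no read lay elsewhere. The 32 members without own windows numbered 32 at window lengths of 16, 20 and 22 bases too. No paired analysis was possible because the series has 1 group. Depth limits every member under 10 reads, and reads that mapped to several places limit the copies.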
